A study of Arabidopsis thaliana with 20 samples.

Results

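Leaves infiltrated with single-walled carbon nanotubes (SWNTs) were compared with leaves that were not infiltrated, gene by gene, across every expressed gene. The comparison used 10 of the 20 RNA-seq samples of the series, 5 SWNT samples and 5 non-infiltrated samples, and 16288 genes passed the filter on low expression. All samples were leaves of 6-week-old wild-type Columbia-0 plants, with 4 leaves pooled in each replicate. SWNT leaves received about 40 µL of pristine nanotubes at 50 ng/µL, carrying single-stranded RNA against a green fluorescent protein that the plants lack, and were collected 48 h later. Non-infiltrated leaves received nothing, so the infiltration, the nanotubes and the RNA cargo all differ between both groups. Leaves infiltrated with 40 µL of water and collected at the same time (5 samples) carry the infiltration alone, and their values and the test of the difference between SWNTs and water are given for many of the results. A change printed without them says nothing of water leaves. No sample received the RNA without nanotubes, so the nanotubes and their cargo cannot be told apart.

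SWNTs are hollow cylinders of carbon that adsorb nucleic acids and are used to carry them into plant cells. A leaf that is pressed, flooded or wounded responds through calcium signals, cell wall remodelling and the hormones jasmonate and ethylene. A leaf that senses a microbe responds through receptor kinases at the plasma membrane, WRKY transcription factors and salicylic acid, and many of the genes of both programmes are shared.

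In SWNT leaves, 3526 genes rose (21.6% of the genes tested) and 3314 fell (20.3%) against non-infiltrated leaves at an adjusted p under 0.05, the rule for "rose" and "fell" throughout (edgeR quasi-likelihood test, Benjamini-Hochberg over all genes tested). Most changes were small, and 2084 of the rises (59.1%) and 2257 of the falls (68.1%) were under 1.5-fold. At least 2-fold, 785 genes rose (4.82%) and 340 fell (2.09%), which makes 1125 in all (6.91%). The 5 SWNT values and the 5 non-infiltrated values did not overlap in 4399 genes (27%). The median log2 change of all genes tested was -0.01. Rises made up 51.5% of all calls in this fit and 40.8% after an offset for each sample's trend with GC content and transcript length, which moved the median to -0.06.

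The water leaves had moved the same way for most of these genes. Across the 785 genes that rose at least 2-fold, the median log2 change was 1.64 in SWNT leaves and 1.01 in water leaves against the same non-infiltrated samples. For the 340 that fell at least 2-fold, the medians were -1.29 and -1.11. Water had the opposite sign for 29 of the risen and 8 of the fallen genes. Against water itself, 1225 genes were higher in SWNT leaves (7.52%) and 1000 were lower (6.14%), of which 201 and 47 differed at least 2-fold. After the GC and length offset these counts were 918 higher and 1494 lower, so the balance turned. Of the 785 risen genes, 314 (40%) were higher than in water and 1 was lower. Of the 340 fallen genes, 64 (18.8%) were lower than in water and none was higher by this edgeR test. The remaining 470 risen and 276 fallen genes did not pass against water, which does not show that they were equal there. These medians are descriptive, since both columns share the non-infiltrated samples.

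The libraries held 15248137 to 24471418 counts on genes in SWNT samples and 23138648 to 29737496 in non-infiltrated samples. Plastid genes took 4.50% to 5.91% of the counts in SWNT samples and 4.99% to 6.12% in non-infiltrated samples, and mitochondrial genes took 2.62% to 3.33% and 3.38% to 4.86%. SWNTs replicates 3 and 4 were the closest pair among the 5, with a chi-square per degree of freedom of 3.66 over 17486 genes against 7.28 to 33.7 for the other SWNT pairs, a difference larger than sampling noise. With both summed into 1 sample, 3211 genes rose and 2898 fell. The samples carry leaf markers: the summed level of 5 mesophyll markers was 43867 to 51170 CPM (counts scaled to a common library size) in SWNT leaves and 41432 to 54836 CPM in non-infiltrated leaves. Root markers summed to at most 0.170 CPM in any of the 10 samples, with 4 of 6 at 0 in all of them, and flower markers to at most 1.14 CPM. Guard cell markers fell in 4 of 7 cases, and their summed level of 50.6 to 55.1 CPM in SWNT leaves lay below the 68.2 to 77.4 CPM of non-infiltrated leaves. The same direction held for 2 of 3 tested stomatal lineage markers (9 listed), 2 of 3 tested epidermis markers (7 listed) and 4 of 8 phloem markers. None of 4 tested xylem markers was called, and 20.3% of all genes tested fell. Summed levels in SWNT and non-infiltrated leaves overlapped for epidermis (708 to 795 and 738 to 860 CPM) and phloem (847 to 913 and 911 to 1245 CPM). They did not overlap for the stomatal lineage (31.7 to 37.3 and 42.7 to 60.3 CPM). In water leaves the median log2 changes of the guard cell, stomatal lineage, epidermis and phloem lists were -0.45, -1.58, 0.00 and -0.39. In bulk leaves, fewer cells of a type and less RNA per cell cannot be told apart, and their part in the results was not tested.

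The 12 largest rises, among genes whose groups did not overlap and whose SWNT mean was at least 10 CPM, lay between 3.31 and 3.84 on the log2 scale. The largest was EXT3, an extensin of the cell wall, at 3.11, 0.985, 4.90, 1.78 and 3.66 CPM in non-infiltrated leaves and 33.9, 28.5, 56.5, 62.0 and 28.0 CPM in SWNT leaves. Its lowest SWNT sample exceeded its highest water sample of 25.8 CPM, and the log2 change of 3.84 (SE 0.33) was 1.29 above that of water (adjusted p = 0.00503). Exons of another gene on the opposite strand cover 29.2% of EXT3, and reads of both cannot be told apart where strand was not counted. CRK13, a cysteine-rich receptor-like kinase, gave 2.82, 0.709, 4.38, 1.32 and 1.36 CPM without infiltration and 39.5, 20.8, 30.3, 31.0 and 18.7 CPM with SWNTs. AT5G10760, annotated as an aspartyl protease, ranged from 4.77 to 10.04 CPM without infiltration and from 56.4 to 98.0 CPM with SWNTs, a log2 change of 3.499 (SE 0.20) against 2.28 in water. XBAT34, a relative of ubiquitin ligases with ankyrin repeats, had 8.59 to 16.7 CPM and 95.1 to 149 CPM, and water samples lay between at 29.6 to 89.8 CPM. The ankyrin repeat protein AT1G10340 rose from 2.21 to 3.57 CPM to 26.4 to 35.1 CPM.

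Of these 12 genes, 7 were also higher than in water: EXT3, CRK13, AT5G10760, XBAT34, AT5G44568, AT1G15010 and AT1G10340. For the lipid transfer protein AT4G12490, the log2 change was 3.77 with SWNTs and 3.796 with water, and the difference of -0.03 had an adjusted p of 0.974. AT4G12490 shares 35.9% of its exons with a gene on the other strand. AT3G21080, AT1G76960, PCR1 (PLANT CADMIUM RESISTANCE 1) and PP2-A5 also did not pass against water. In PP2-A5, the water samples ran from 1.22 to 35.0 CPM and covered the SWNT range of 11.9 to 26.0 CPM.

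**Figure D1:**
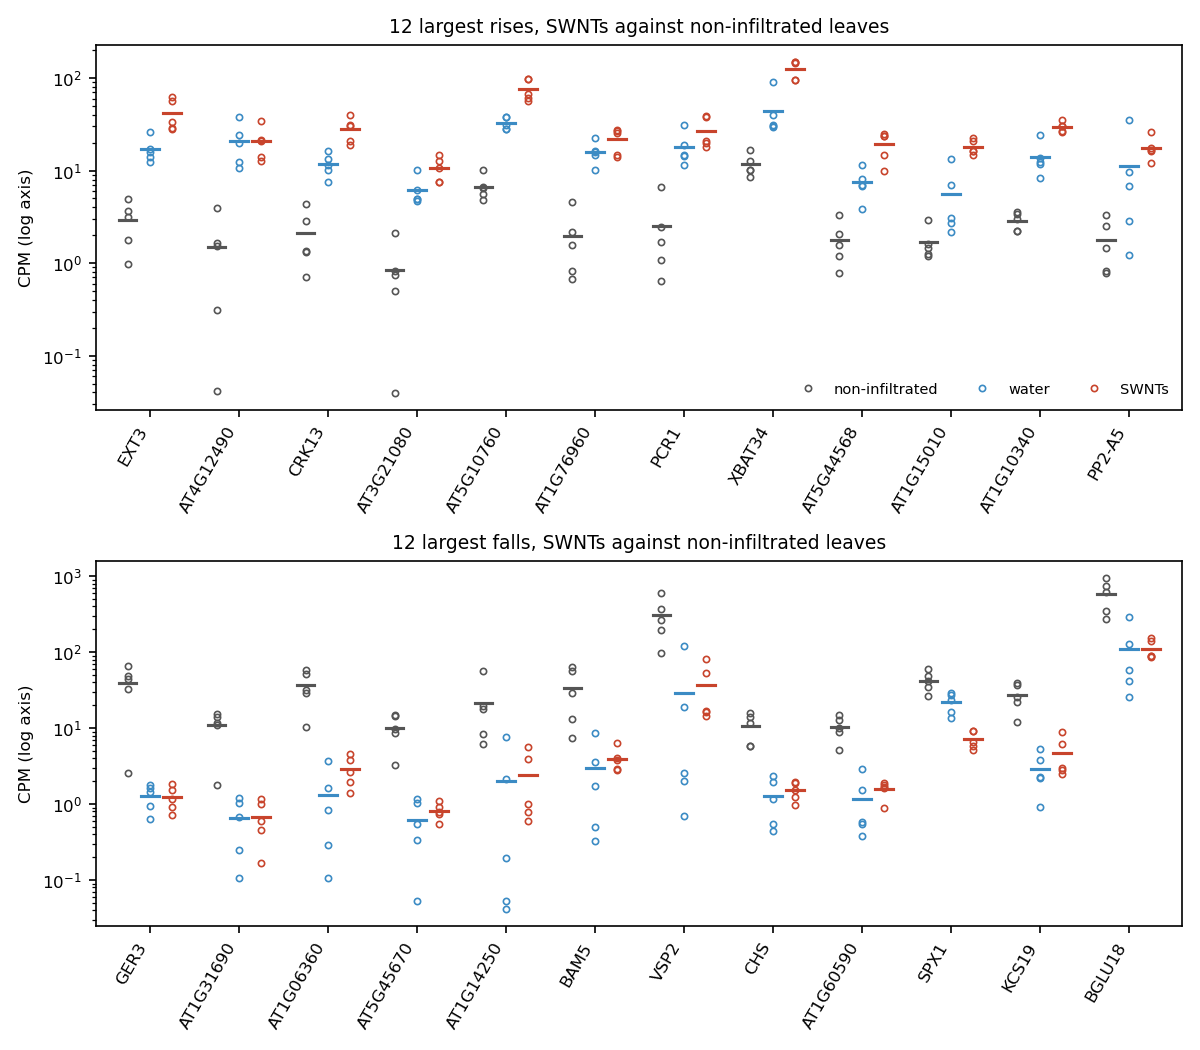
CPM on a log axis of the 12 genes with the largest rise (top) and the 12 with the largest fall (bottom) in non-infiltrated, water and SWNT leaves; each circle is 1 sample and each bar the mean of 5. For the rises the water samples tend to lie between the other groups, while among the falls SPX1 alone passed the test between SWNTs and water.

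The 12 largest falls ran from -2.395 to -4.99 on the log2 scale, and 11 of them did not pass the test against water. GER3, a germin-like protein of the cell wall, had 32.7, 43.7, 2.58, 48.9 and 65.7 CPM in non-infiltrated leaves and 1.52, 1.81, 0.904, 1.18 and 0.716 CPM in SWNT leaves. Water leaves had 0.644 to 1.76 CPM of GER3, inside the SWNT range or next to it, so the log2 changes of -4.99 and -4.89 in SWNTs and water differed by -0.10 (adjusted p = 0.961). Non-infiltrated replicate 3 stood far below the others for GER3, as it did for the copper amine oxidase AT1G31690, at 1.80 CPM against 11.1 to 15.5 CPM. The fatty acid desaturase AT1G06360, the lipase AT5G45670, the pectin lyase-like AT1G60590 and KCS19, a 3-ketoacyl-CoA synthase of very long fatty acids, also fell by 2.54 or more on the log2 scale. The nucleoside phosphatase AT1G14250 and the amylase BAM5 varied widely between samples without infiltration, from 6.27 to 56.1 CPM and from 7.43 to 63.7 CPM.

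VSP2, a vegetative storage protein controlled by jasmonate, fell from 97.8 to 596 CPM to 14.53 to 81.3 CPM. Its call (adjusted p = 0.028) was lost without non-infiltrated replicate 2 or without SWNTs replicate 3, 4 or 5, and also with SWNTs replicates 3 and 4 merged. BGLU18, a beta glucosidase of ER bodies, fell from 274 to 946 CPM to 87.3 to 153 CPM, and CHS, the entry enzyme of flavonoid synthesis, from 5.77 to 15.7 CPM to 0.964 to 1.97 CPM. SPX1 was the exception against water. This SPX domain protein, which restrains phosphate starvation signalling, had 48.6, 59.8, 34.6, 26.8 and 41.2 CPM without infiltration, 29.2, 23.8, 16.5, 27.4 and 13.6 CPM with water and 5.12, 9.07, 6.57, 5.89 and 9.14 CPM with SWNTs. All 5 SWNT samples lay below all water samples, and SPX1 fell by 2.55 (SE 0.26) on the log2 scale, with a difference from water of -1.62 (adjusted p = 0.000423).

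SPX1 is one of 6 genes that the study itself selected on these samples as markers of SWNTs and measured by RT-qPCR, so their direction here is not independent evidence. The chitinase AT2G43620, an enzyme class that cuts fungal cell walls, had 3.94, 0.867, 2.06, 2.23 and 2.205 CPM without infiltration and 15.6, 13.7, 24.1, 23.2 and 10.6 CPM with SWNTs. Its water samples stayed at 2.304 to 4.23 CPM, and the log2 change of 2.94 (SE 0.29) was 2.35 above that of water (adjusted p = 3.6e-05). ERF011, an ethylene response factor, went from 0.249 to 2.21 CPM to 6.35 to 11.5 CPM, with water at 0.864 to 4.07 CPM. AT2G15020, which has no annotated function, fell from 31.8, 53.1, 45.1, 13.8 and 27.8 CPM to 12.9, 9.24, 6.75, 8.84 and 6.40 CPM, while water samples had 29.5 to 62.9 CPM. AT5G54130, annotated as a calcium-binding endonuclease or phosphatase, fell from 16.3 to 39.4 CPM to 6.95 to 10.09 CPM, with water at 18.0 to 32.3 CPM. The reference gene SAND had 34.6 to 38.3 CPM with SWNTs and 35.7 to 39.8 CPM without infiltration, a log2 change of -0.01 (SE 0.05).

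Most of the listed immune receptors rose. Of 29 listed immune receptors and cysteine-rich receptor-like kinases (CRKs), 25 were tested, 24 rose, 17 of them at least 2-fold, and none fell by this test. The median log2 change of the list was 1.46, against -0.01 for all genes, and was 0.85 in water. Against water, 16 of the 25 were higher, or 13 after the GC and length offset and 13 with SWNTs replicates 3 and 4 merged. CRKs carry extracellular cysteine-rich domains and take part in pathogen and oxidative stress responses. CRK11, the remaining RT-qPCR marker, had 4.73, 3.55, 5.27, 5.71 and 4.99 CPM without infiltration, 5.47, 4.18, 6.39, 10.7 and 4.53 CPM with water and 42.9, 18.5, 29.2, 28.5 and 20.01 CPM with SWNTs. CRK11 water samples overlapped the non-infiltrated range, whereas every SWNT sample lay above both. The log2 change of CRK11 was 2.52 (SE 0.24), and it was 0.36 in water.

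CRK10, CRK11, CRK12, CRK13, AT4G23215, CRK14 and CRK15 are consecutive tested genes on chromosome 4 (chr4:12137995-12160279, TAIR10.1). They were picked as a run in which each gene rose at least 2-fold, here by 1.36 to 3.72 on the log2 scale. CRK5, CRK6 and CRK7, picked in the same way, lie a short distance away (chr4:12117491-12128490) and rose by 1.46 to 2.54. Genes between both runs are left out, so the rise of these genes is given by the choice. Across the 25 tested genes annotated as cysteine-rich receptor-like kinases, 21 rose and 2 fell. CRK6 gave 2.43 to 5.27 CPM without infiltration, 7.03 to 8.35 CPM with water and 18.4 to 27.0 CPM with SWNTs, so the 3 groups did not overlap. CRK10 stayed within 41.5 to 47.0 CPM without infiltration and reached 137 to 205 CPM with SWNTs, with 1 water sample at 121 CPM and the others at 47.2 to 61.3 CPM. CRK14 rose from 1.68 to 5.06 CPM to 16.7 to 23.4 CPM, and its log2 change was 1.61 above that of water (adjusted p = 0.000142). CRK12 rose by 1.36 but was not separable from water, with a difference of 0.27 (adjusted p = 0.301). The cluster consists of tandem duplicates, so reads that fit several copies are uncertain, and the ends of CRK10 and CRK11 overlap by 1.26% of their exons.

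**Figure D2:**
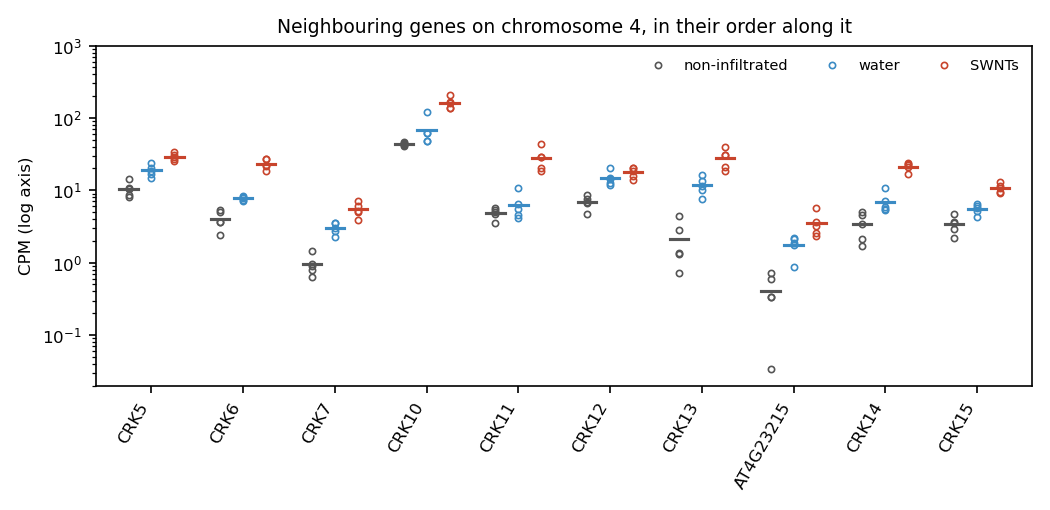
CPM on a log axis of 10 neighbouring genes of the CRK cluster on chromosome 4, in their order along it, in non-infiltrated, water and SWNT leaves; circles are samples and bars are means of 5. The 10 genes were picked as runs of neighbours that each rose at least 2-fold, so their rise is given by that choice. Among them, CRK11 shows the widest gap between SWNTs and water.

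WRKY factors bind the W-box, spelled here TTGACC or TTGACT on either strand. A W-box occurred in the 250 bases before the gene start in 45% of the genes that rose at least 2-fold (353 of 785), 27.8% of all tested genes, 21.7% of those that fell at least 2-fold and 27.4% of all 38092 promoters of the genome. On the immune receptor list, 16 of 25 promoters (64%) held 1. Such shares were not particular to that list or to lists that rose. They were 75% for alternative respiration (6 of 8), 64.3% for glutathione transferases and UDP-glycosyltransferases (9 of 14) and 50% for auxin genes (10 of 20). WRKY factors had 41.7% (10 of 24) and the salicylic acid list had 20% (3 of 15). A match of these letters is a description and not a bound site. The promoters of 3 CRK genes and of the chitinase AT2G43620 show them, because these genes rose beyond water and hold 2 to 4 matches each. They are RefSeq genomic sequence of TAIR10.1, written 5′ to 3′ on the strand of the gene, with W-box matches in capitals. CRK11 spans chr4:12143859-12144108 on the minus strand, CRK5 chr4:12120221-12120470 minus, CRK14 chr4:12156882-12157131 minus and AT2G43620 chr2:18095094-18095343 minus.
CRK11: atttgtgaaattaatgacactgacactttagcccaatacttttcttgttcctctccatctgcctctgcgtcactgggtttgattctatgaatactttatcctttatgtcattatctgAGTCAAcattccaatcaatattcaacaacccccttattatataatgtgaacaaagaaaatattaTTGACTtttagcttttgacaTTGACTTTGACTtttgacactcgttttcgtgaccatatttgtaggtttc
CRK5: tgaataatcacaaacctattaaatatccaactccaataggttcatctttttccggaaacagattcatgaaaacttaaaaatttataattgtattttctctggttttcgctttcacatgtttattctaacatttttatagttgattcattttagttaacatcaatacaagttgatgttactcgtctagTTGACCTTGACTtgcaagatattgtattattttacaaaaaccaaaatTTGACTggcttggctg
CRK14: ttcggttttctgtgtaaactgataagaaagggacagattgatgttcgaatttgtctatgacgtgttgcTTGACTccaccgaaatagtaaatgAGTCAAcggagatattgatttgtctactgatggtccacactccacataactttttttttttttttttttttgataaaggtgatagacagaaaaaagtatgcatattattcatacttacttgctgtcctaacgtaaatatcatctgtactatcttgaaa
AT2G43620: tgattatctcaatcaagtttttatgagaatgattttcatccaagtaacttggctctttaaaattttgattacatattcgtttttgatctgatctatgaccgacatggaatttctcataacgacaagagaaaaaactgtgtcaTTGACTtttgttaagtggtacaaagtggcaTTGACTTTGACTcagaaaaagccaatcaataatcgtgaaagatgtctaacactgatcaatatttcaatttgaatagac
In CRK11 the 4 matches begin 133, 69, 49 and 43 bases before the start, with the last pair adjoining. CRK5 and AT2G43620 also hold an adjoining pair, 63 and 57 bases and 78 and 72 bases before the start.

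The other receptors of the list varied. SOBIR1, the partner kinase of receptor-like proteins, went from 34.8 to 85.2 CPM to 188 to 267 CPM, a log2 change of 2.06 (SE 0.25) against 1.26 in water. PEPR1, the receptor of the wound peptide Pep1, rose by 0.98 in SWNT leaves while water gave -0.32, and the difference of 1.29 passed (adjusted p = 0.0022). WAK1 and WAK2, kinases that bind pectin, rose by 1.56 and 0.99, and neither passed against water. EFR, BIK1, CERK1 and BAK1 rose by 0.27 to 0.81. FLS2, the flagellin receptor, was at 0.23 (adjusted p = 0.127), the only tested member of the list that did not pass against non-infiltrated leaves, yet it was 0.42 above water (adjusted p = 0.024). WAK3 rose from a mean of 0.226 CPM to 3.11 CPM.

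Among 29 listed WRKY factors, 16 of the 24 tested rose, 13 of them at least 2-fold, and none fell in the edgeR test. Their median log2 change was 1.31, and 0.65 in water. WRKY25 had 12.1 to 19.5 CPM without infiltration, 20.6 to 27.8 CPM with water and 45.9 to 66.2 CPM with SWNTs, with no overlap between groups. WRKY18, which represses and tunes basal defence, went from 7.60 to 22.03 CPM to 55.2 to 107 CPM, and its log2 change exceeded that of water by 1.75 (adjusted p = 0.0022). WRKY53, WRKY46, WRKY54 and WRKY70 rose by 2.24 to 2.75, and none of these 4 passed against water. Altogether 5 of the 24 were higher than in water: WRKY18, WRKY28, WRKY25, WRKY22 and WRKY15. WRKY22 and WRKY15 were at -0.04 and -0.47 in water. WRKY40 varied too widely between samples to be called (1.296, SE 0.99), with 0.712 to 55.6 CPM without infiltration and 28.0 to 92.9 CPM with SWNTs.

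The 20 listed NAC factors, many of which act in stress and senescence, rose in 12 of 18 tested cases, 10 at least 2-fold. ANAC013, a regulator of mitochondrial stress genes, fell by 0.36. ANAC036 went from 5.12 to 12.8 CPM to 47.0 to 93.0 CPM, with water at 20.3 to 50.2 CPM. ANAC055, RD26, NAP and ANAC019 rose by 1.24 to 2.02 and, with ANAC036, made up the 5 that were also higher than in water. The 25 listed ERF and DREB factors were more scattered, since 6 of 19 tested rose, 5 at least 2-fold. The stress-induced RRTF1, ERF6 and ERF5 spread too widely to be called. RAP2.12, a sensor of low oxygen, was 0.13 above non-infiltrated leaves (adjusted p = 0.0697) and 0.41 above water (adjusted p = 9.9e-05).

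Salicylic acid signalling rose at nearly every tested step. Of 15 tested members, 13 rose, 9 at least 2-fold, and EPS1 fell by 0.63. SARD1 and CBP60g, the transcription factors that activate salicylic acid synthesis, rose by 2.55 and 1.93. SARD1 had 2.88 to 7.22 CPM without infiltration, 12.9 to 20.1 CPM with water and 20.5 to 35.1 CPM with SWNTs. ICS1, the synthase on the main route to salicylic acid, rose by 0.75, and its exporter EDS5 was at -0.13 (adjusted p = 0.615). PBS3, EDS1, PAD4 and SAG101, which act in synthesis and in the EDS1 complexes, rose by 0.65 to 1.71. The receptors NPR1, NPR3 and NPR4 rose by 0.53, 1.79 and 1.24. DMR6 and DLO1, the hydroxylases that break salicylic acid down, rose by 2.06 and 3.22. Against water, 8 of the 15 were higher, but 5 after the GC and length offset and 4 with SWNTs replicates 3 and 4 merged.

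Of 19 listed pathogenesis-related proteins and chitinases, 10 were tested, and 8 of these rose, 7 at least 2-fold. The filter averages all 20 samples, so a gene low without infiltration could pass through a group where it was high. This tilts the share of rises upward. PR2, a beta-1,3-glucanase and a marker of salicylic acid, had 4.15, 4.85, 2.02, 7.53 and 1.83 CPM without infiltration, 8.50, 6.65, 11.3, 4.90 and 10.8 CPM with water and 34.9, 28.2, 43.4, 41.7 and 34.2 CPM with SWNTs. Every SWNT sample of PR2 was above every water sample, and 2.11 of its log2 change of 3.17 (SE 0.30) lay beyond water (adjusted p = 8.35e-05). PR5, a thaumatin-like protein, rose by 1.29 against -0.08 in water. PR1, the most used marker of this hormone, stayed near the detection limit, with means of 0.462 CPM without infiltration and 0.222 CPM with SWNTs (adjusted p = 0.237). Detoxification followed in part: of 26 listed glutathione transferases and UDP-glycosyltransferases, 14 were tested, 7 rose and 2 fell. GSTF6 rose from 3.39 to 14.7 CPM to 43.8 to 91.0 CPM, 1.42 beyond water on the log2 scale (adjusted p = 0.0027), and DHAR1, a dehydroascorbate reductase, fell by 1.03.

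Class III peroxidases act in the cell wall. PRX62 held at most 3 counts in any non-infiltrated sample and 25 to 153 counts in each SWNT sample, which makes it at least 35.7-fold higher, taking 3 counts per sample as the floor, and its fitted difference from water was 3.13 (adjusted p = 0.0013). PRX71 rose from 2.21 to 11.3 CPM to 24.2 to 66.5 CPM and did not pass against water (adjusted p = 0.074). On the list of 16 tested peroxidases and antioxidant enzymes, 8 rose and CAT3, a catalase, fell by 0.32, and the count of rises was 5 after the GC and length offset. Of 8 tested genes of alternative respiration, 2 rose, a share close to the 21.6% of all genes, and none passed against water by the edgeR test. They were DIC1 and OM66, at 1.62 and 1.63, while AOX1A was at 0.12 (adjusted p = 0.522).

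Of 25 jasmonate genes tested, 5 rose and 5 fell, shares close to the 21.6% and 20.3% of all genes, with a median log2 change of 0.42 in SWNT leaves and -0.60 in water leaves. The genes that rose were JAZ7, a repressor, CYP94C1, which oxidises the active hormone, and the synthesis genes LOX3, LOX4 and OPCL1. LOX4 had 6.97, 51.7, 30.7, 15.3 and 11.8 CPM without infiltration and 141, 116, 91.4, 98.2 and 99.7 CPM with SWNTs, and 1 water sample at 75.8 CPM approached that range. LOX2, the main leaf lipoxygenase of the pathway, fell from 898 to 3125 CPM to 481 to 887 CPM, and VSP1 and VSP2, its downstream storage proteins, also fell, as did AOC4 and JAR1. Against water, 10 of the 25 were higher and JAR1 was lower. The 10 include JAZ2, JAZ3, JAZ6, JAZ8, JAZ12 and OPR3, none of which passed against non-infiltrated leaves. With SWNTs replicates 3 and 4 merged, 7 were higher than water and 2 fell against non-infiltrated leaves.

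Aliphatic glucosinolates, the sulfur-rich defence compounds of the cabbage family that derive from methionine, fell at most steps of their synthesis. Of 17 tested genes, 14 fell, 10 at least 2-fold, with a median log2 change of -1.22 in SWNT leaves and -1.67 in water leaves. GSTU20 fell from 24.3 to 48.5 CPM to 8.86 to 14.7 CPM, with water at 6.06 to 17.1 CPM. BAT5, IPMI1, FMOGS-OX3, MAM1 and CYP83A1 fell by 1.22 to 1.88. Only MYB28, a regulator of the pathway, was also lower than in water: it had 81.6 to 122 CPM without infiltration, 70.7 to 97.2 CPM with water and 52.0 to 65.6 CPM with SWNTs. Of the 12 tested genes for the glucosinolate-cleaving myrosinases, their modifiers and ER bodies, 8 fell. TGG2, a myrosinase, fell from 833 to 1276 CPM to 216 to 387 CPM, and TGG1 from 1337 to 2083 CPM to 749 to 912 CPM, and both were as low or lower in water on average. The indolic branch, which derives from tryptophan, mixed 6 falls with rises of its regulator MYB51 (2.00), IGMT2 and PEN2. Of 11 genes of tryptophan and camalexin synthesis, 3 fell and CYP71A12 rose.

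Touch and calcium genes rose, also in water. Of 11 tested TCH and calmodulin-like genes, 7 rose, 6 at least 2-fold, and the list median was 1.82 in SWNT leaves and 1.53 in water leaves. TCH3, a calmodulin-like protein induced by touch, had 16.6 to 34.8 CPM without infiltration, 49.5 to 133 CPM with water and 126 to 183 CPM with SWNTs. CML41, CML46 and TCH3 were the 3 that were higher than in water. Cell wall enzymes followed: of 23 xyloglucan endotransglucosylases (XTH) and expansins, 11 rose and XTH9, XTH16 and EXPA5 fell. XTH23 went from 0.207 to 3.89 CPM to 8.68 to 24.9 CPM, and none of the 11 rises passed against water in the edgeR test. Ethylene genes moved little, apart from the synthesis gene ACS8, which rose by 2.78 in SWNT leaves and 2.51 in water leaves. Of 15 ethylene genes tested, 7 rose, or 4 with scaling by library size only, and ACO4 fell by 0.67.

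The leaf surface programme rose in part. Of 23 tested genes of cuticular wax and cutin, 13 rose, 5 at least 2-fold. CER1, which makes the alkanes of the wax layer together with CER3, had 68.7, 34.8, 65.3, 41.7 and 47.6 CPM without infiltration, 79.1, 36.9, 42.4, 32.5 and 40.1 CPM with water and 268, 131, 143, 142 and 87.7 CPM with SWNTs. Water and non-infiltrated samples of CER1 overlapped, and all SWNT samples lay above both, at a difference from water of 1.74 (adjusted p = 0.0011). CER3 rose from 86.4 to 123 CPM to 238 to 304 CPM, 0.46 beyond water. The lipase LTL1 went the other way, from 0.860 to 13.2 CPM to 0.211 to 0.660 CPM, and was as low with water. Of 15 aquaporins, 8 rose by 0.26 to 0.96, and PIP2;2, whose near-identical copy PIP2;3 shares reads, was higher than in water.

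All 17 listed ER chaperones and folding genes rose, 4 of them at least 2-fold, and in 16 the groups did not overlap. Their median log2 change was 0.75, and 0.44 in water. BIP3, the stress-inducible copy of the luminal chaperone BiP, had 0.207, 0, 0, 0.951 and 0.102 CPM without infiltration and 3.37, 3.46, 5.97, 3.08 and 2.61 CPM with SWNTs, with water at 0.233 to 0.788 CPM. BIP2 went from 22.9 to 40.9 CPM to 58.4 to 87.7 CPM and SHD, the ER form of HSP90, from 143 to 170 CPM to 199 to 262 CPM. The lectin chaperone CRT3 rose by 1.54. Against water, 8 of the 17 were higher, or 6 in each of the GC-offset and merged fits. The sensors bZIP28 and bZIP60 rose by 0.36 and 0.54. Cytosolic heat shock genes differed from this, with 5 of 10 tested rising, GolS1 falling by 1.29 and none higher than water by the edgeR test. HSP101 and MBF1C were lower than in water, a count that was 4 after the GC and length offset and 0 in the merged fit.

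Part of the listed sugar starvation and transport genes separated SWNTs from water. Of the 17 tested, 9 rose, with a list median of 0.67 in SWNT leaves and 0.10 in water leaves. The median of their gene-by-gene differences from water was smaller, at 0.28. Against water 7 were higher, or 6 higher and 1 lower after the GC and length offset. TPS10, a class II trehalose phosphate synthase-like protein, had 20.4 to 27.7 CPM without infiltration, 18.5 to 26.0 CPM with water and 48.1 to 56.2 CPM with SWNTs, and its log2 difference from water was 1.21 (adjusted p = 6.3e-07). TPS9 behaved alike, at 7.12 to 10.2, 5.64 to 10.08 and 17.2 to 25.9 CPM, while TPS11 rose by 2.24 with SWNTs and by 1.01 with water. The transcription factor bZIP1, which acts under low energy, rose by 1.42 against 0.10 in water. In contrast, the dark-induced ASN1 was at 0.03 (adjusted p = 0.906). Of 13 autophagy genes tested, 5 rose and 2 fell against non-infiltrated leaves, and the 5 that rose were all higher than in water. ATG8E went from 13.8 to 21.1 CPM to 29.0 to 43.4 CPM, with water at 11.2 to 23.1 CPM. The 5 rises became 3 after the GC and length offset.

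Of 35 listed genes of the low oxygen response, 16 were tested. Of these, 8 rose and 3 fell, and the 8 became 5 both after the GC and length offset and in the merged fit. The hypoxia-response genes HUP54 and HUP26 rose by 1.13 and 1.73 and were higher than in water. HUP54 had 43.6 to 58.2 CPM without infiltration, 27.4 to 62.8 CPM with water and 82.4 to 144 CPM with SWNTs. The fermentation gene PDC2 fell by 0.44 and the regulator HRE1 was at -0.22 (adjusted p = 0.437). Of 14 tested senescence and chlorophyll breakdown genes, 4 rose and 3 fell, beside 21.6% and 20.3% of all genes tested. The list median was 0.025 in SWNT leaves and 0.095 in water leaves. SAG20, SAG21 and NAP were among those that rose, and PPH, NOL and SAG113 fell.

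Of 42 tested nuclear genes of the photosystems and electron transport, 20 rose, or 14 after the GC and length offset, and 1 fell. The list median was 0.19 in SWNT leaves and 0.23 in water leaves, and no member passed against water by edgeR's test. PSAD2, a subunit of photosystem I, went from 789 to 961 CPM to 1159 to 1417 CPM. LHCB1.1 went from 4405 to 5381 CPM to 6098 to 6760 CPM, while LHCB1.4, a copy of the same antenna protein, fell from 10917 to 15655 CPM to 7684 to 10965 CPM, and reads shared between such copies are uncertain. On the list of 28 genes of carbon fixation and photorespiration, 6 fell, a share close to that of all genes (20.3%), and the count was 10 with scaling by library size only, 8 after the GC and length offset and 4 in the merged fit. These 6 all act in photorespiration: GLDP1, GDCH and GLDT of glycine decarboxylase, GOX1, AGT1 and HPR1. GLDP1 had 654 to 1098 CPM without infiltration and 537 to 587 CPM with SWNTs. On the same list RCA, RBCS2B, RBCS3B, CP12-2 and GLYK rose by 0.21 to 0.63. Against water, 6 of the list were lower, GAPB and PRK among them, or 9 after the GC and length offset and 4 in the merged fit. The largest losses in CPM included 2 organelle genes, the mitochondrial ATMG01390 and the plastid ATCG00480, which fell by 0.36 and 0.32 on the log2 scale. ATMG01390, whose product is not given in the annotation used here, averaged 39236 CPM without infiltration and 30511 CPM with SWNTs. That is most of the mitochondrial counts, so its fall and the lower mitochondrial share rest largely on the same reads. The gains included GASA1, a small gibberellin-regulated protein (1.09). Cytosolic ribosomal protein and nucleolar genes rose in 12 of 25 cases, by at most 0.43, and in 7 after the GC and length offset, with a median of 0.21 in SWNT and water leaves alike.

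**Figure D3:**
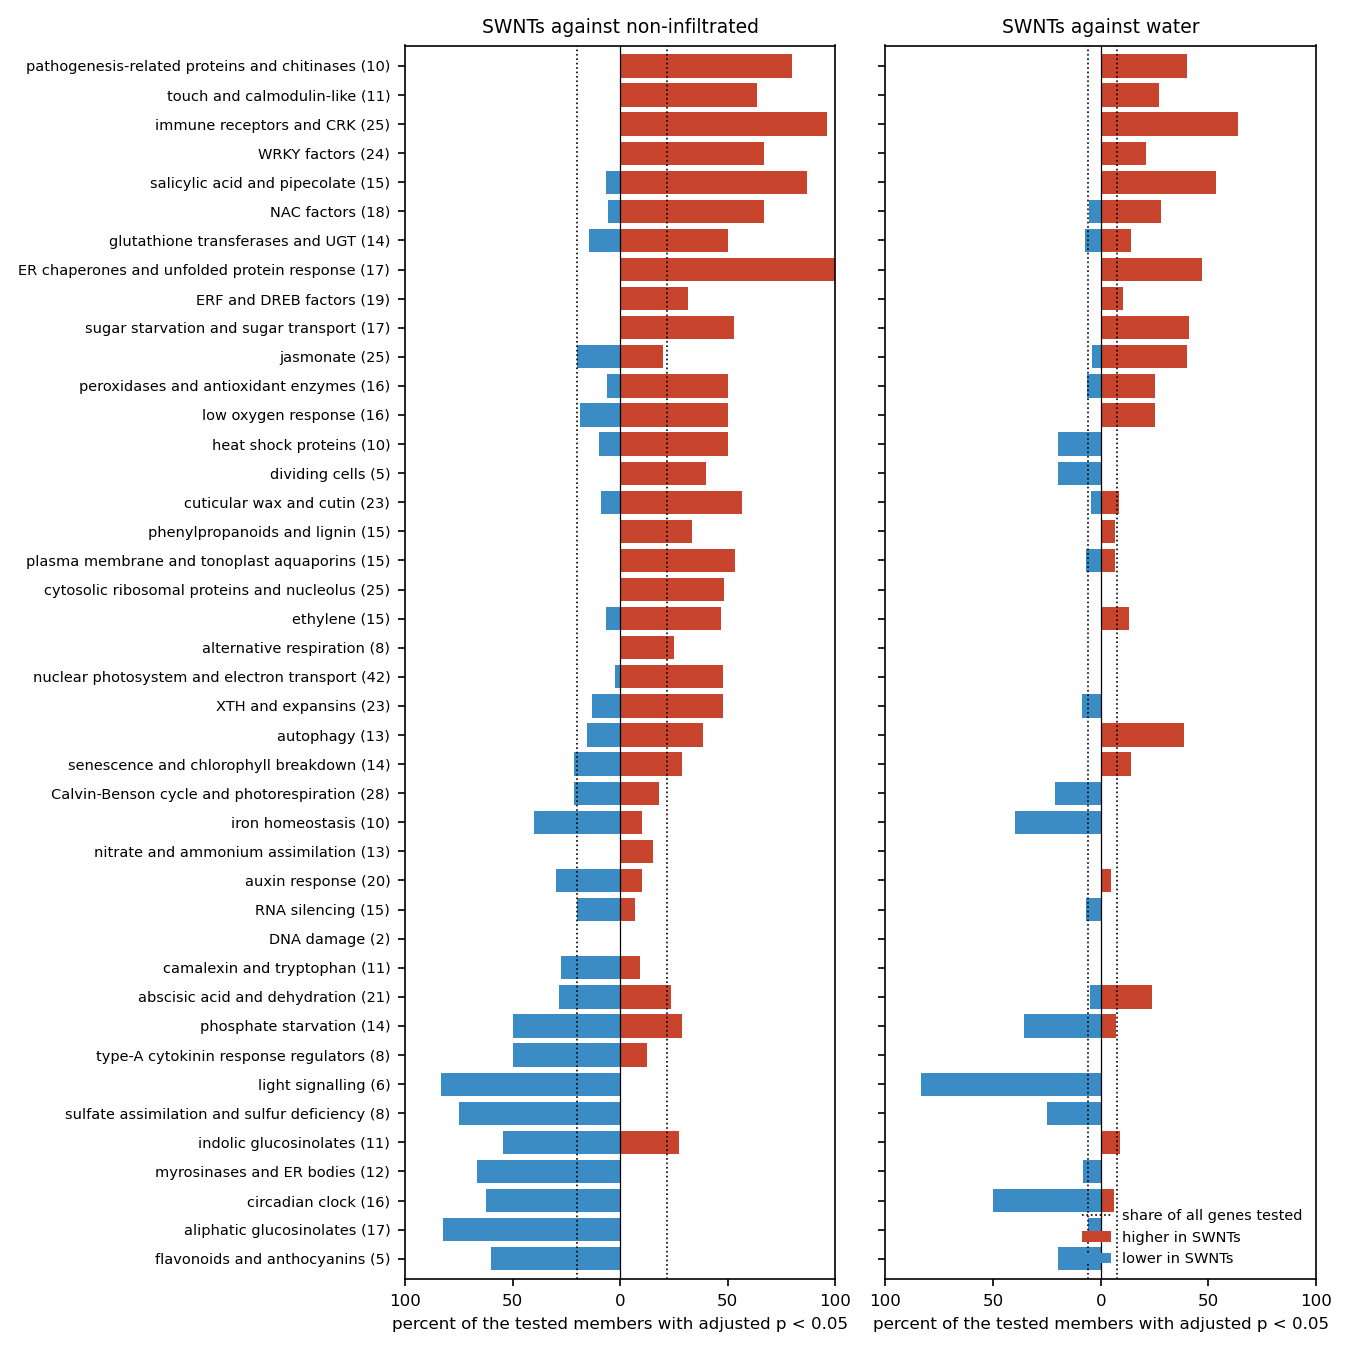
Percent of the tested members of each gene list (their number in parentheses) that were called higher or lower at an adjusted p under 0.05, in SWNTs against non-infiltrated leaves (left) and SWNTs against water (right); dotted lines mark the share among all genes tested. ER chaperones and immune receptors reach 17 of 17 and 24 of 25 on the left, while light signalling and the circadian clock have the largest shares lower than water, with 5 of 6 and 8 of 16.

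The circadian clock and light signalling fell in SWNT leaves, in part beyond water leaves. Of 16 tested clock genes, 10 fell and none rose by edgeR, with a list median of -0.70 in SWNT leaves and -0.04 in water leaves. The median of their gene-by-gene differences from water was smaller, at -0.24. Against water, 8 were lower and TOC1 was higher. PRR9, a morning repressor, had 49.3, 71.3, 63.1, 37.6 and 38.4 CPM without infiltration, 55.6, 64.3, 40.9, 47.5 and 40.3 CPM with water and 26.9, 27.3, 28.2, 25.6 and 28.7 CPM with SWNTs. The SWNT samples of PRR9 lay within a narrow band below both other groups (difference from water -0.86, adjusted p = 0.0016). RVE8, an activator of evening genes, fell from 116 to 140 CPM to 69.9 to 81.8 CPM, with water at 100 to 123 CPM. CCA1, the central morning factor, fell by 0.48 while water was at 0.17, and CDF1, a repressor of flowering, fell by 0.75 against 0.05. LHY and RVE1 did not pass against non-infiltrated leaves but were lower than in water (differences -0.29 and -0.87).

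The evening complex behaved differently, because its genes LUX, ELF3 and ELF4 fell in water too and did not pass between SWNTs and water. LUX had 13.9, 12.1, 6.81, 15.8 and 16.5 CPM without infiltration, 3.44, 3.27, 4.30, 2.11 and 5.43 CPM with water and 5.12, 3.57, 3.07, 3.54 and 2.95 CPM with SWNTs. The morning factors and RVE8 bind the evening element, AAATATCT, which occurred in 4 of the 16 clock promoters (25%) and in 5% of all tested promoters. It was not particular to the clock, with 5 of 19 ERF and DREB promoters (26.3%). The G-box, CACGTG, occurred in 6 of the 16 clock promoters (37.5%) and in 7.59% of all tested promoters. The LUX promoter (chr3:17182792-17183041, plus strand, TAIR10.1, RefSeq) is shown as it holds 2, in capitals, on opposite strands and 70 and 52 bases before the start.
LUX: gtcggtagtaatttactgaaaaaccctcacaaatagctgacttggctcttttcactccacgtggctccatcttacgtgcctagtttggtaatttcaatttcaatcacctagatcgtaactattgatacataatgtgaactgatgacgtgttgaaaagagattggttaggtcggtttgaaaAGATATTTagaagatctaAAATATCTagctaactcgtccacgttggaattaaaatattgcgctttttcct
Among light signalling genes, 5 of 6 tested fell and the same 5 were lower than in water, also after the GC and length offset, while water itself had a median of 0.42. BBX31, a small B-box protein, had 3.32, 4.77, 4.15, 0.703 and 1.70 CPM without infiltration, 5.80, 4.94, 4.13, 3.77 and 1.87 CPM with water and 1.07, 0.715, 0.844, 0.393 and 0.506 CPM with SWNTs. HY5, the central activator of light responses, fell from 13.9 to 19.5 CPM to 10.8 to 13.4 CPM, with water at 16.7 to 21.6 CPM. The hours at which the leaves of each group were collected are not given in the sources used here, and their part was not tested.

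**Figure D4:**
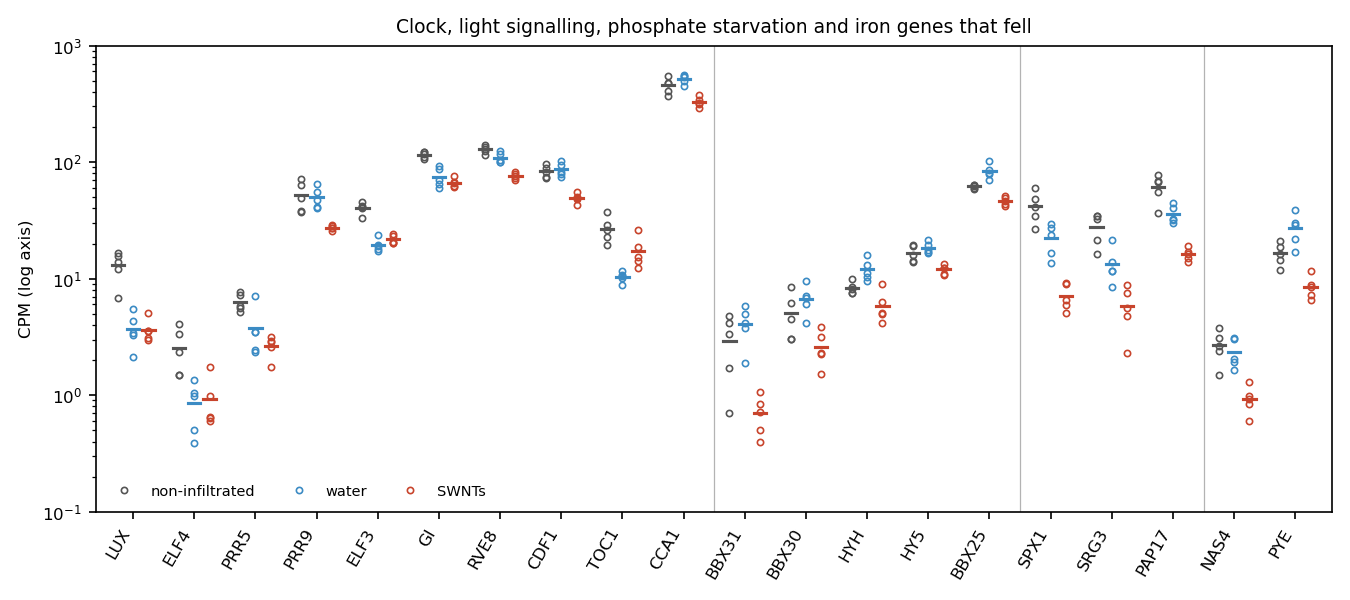
CPM on a log axis of 20 genes of the clock, light signalling, phosphate starvation and iron homeostasis (blocks from left to right) that fell in SWNT against non-infiltrated leaves; circles are samples and bars are means of 5. LUX, ELF4 and ELF3 overlap between water and SWNT leaves, whereas PRR9, BBX31, SPX1 and PYE are lower in SWNT leaves than in water.

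Phosphate starvation genes fell more often than they rose. Of 14 tested, 7 fell and 4 rose, and 5 were lower than in water. Beside SPX1, PAP17, an acid phosphatase, had 36.8 to 77.2 CPM without infiltration, 30.0 to 44.4 CPM with water and 13.8 to 19.0 CPM with SWNTs. SRG3, a glycerophosphodiesterase that recovers phosphate from lipids, had 34.2, 34.6, 21.2, 16.1 and 32.3 CPM without infiltration, 21.3, 11.5, 11.6, 13.8 and 8.49 CPM with water and 2.31, 7.59, 5.61, 4.78 and 8.76 CPM with SWNTs. The regulator PHR1 itself was at -0.03 (adjusted p = 0.628), with a difference from water of -0.14. PHR1 binds the P1BS sequence, GNATATNC, which occurred in 4 of the 14 promoters of the list (28.6%) and in 5.47% of all tested promoters. Other lists came near this share, with 2 of 8 sulfate promoters (25%) and 3 of 13 autophagy promoters (23.1%). The SRG3 promoter (chr3:350011-350260, minus strand, TAIR10.1, RefSeq) is shown because it holds 2 matches, in capitals, 127 and 63 bases before the start.
SRG3: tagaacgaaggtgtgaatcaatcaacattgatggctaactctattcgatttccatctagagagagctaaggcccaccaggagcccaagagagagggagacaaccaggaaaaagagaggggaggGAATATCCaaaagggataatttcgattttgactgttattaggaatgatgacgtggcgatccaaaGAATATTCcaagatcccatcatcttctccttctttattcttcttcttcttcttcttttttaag
The genes of the list that rose were RNS1, a ribonuclease also induced by wounding, PHO1;H10, PHT1;4 and SPX4.

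Iron genes gave 4 falls and 1 rise among 10 tested. PYE, a regulator of the iron deficiency response, had 11.8 to 20.9 CPM without infiltration, 17.03 to 38.6 CPM with water and 6.57 to 11.6 CPM with SWNTs, so that it rose in water and fell with SWNTs (difference -1.67, adjusted p = 5.4e-05). NAS4, a nicotianamine synthase, fell by 1.52, and the ferritins FER3 and FER4 fell by 0.41 and 0.43. OPT3, an iron transporter of the phloem, rose by 0.38, yet its SWNT samples of 202 to 231 CPM stayed below the water samples of 264 to 357 CPM. Of 8 tested genes of sulfate assimilation and sulfur deficiency, 6 fell. APR1, a reductase of sulfate assimilation, fell from 26.1 to 40.1 CPM to 11.8 to 16.0 CPM and was equally low in water at 13.3 to 16.4 CPM. APR2 and LSU2 were lower than in water (differences -0.73 and -0.65). Nitrate genes changed little, with LBD37 and LBD38 rising and the reductases NIA1 and NIA2 too variable to be called.

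Hormone lists outside defence gave mixed counts, to be read beside the 21.6% of all genes tested that rose and the 20.3% that fell. Of 21 tested genes of abscisic acid and dehydration, 5 rose, with RD26 at 1.90 and the synthesis gene NCED3 at 1.21, and 6 fell, among them COR15A, COR6.6 and the phosphatases HAB1, ABI2 and HAI1, the gene also listed as SAG113. After the GC and length offset, 9 of them fell. Of 20 auxin genes, GH3.5 and GH3.6 rose and 6 fell, including the receptors AFB1, AFB2 and AFB3. GH3.5, which conjugates auxin and salicylic acid to amino acids, went from 8.56 to 17.39 CPM to 23.3 to 36.6 CPM, above all water samples of 10.9 to 16.3 CPM. Of 8 type-A cytokinin response regulators, ARR8, ARR9, ARR15 and ARR16 fell and ARR5 rose by 0.44, the latter not in the GC-offset, merged, library size or replicate block fits. Flavonoid genes fell in 3 of 5 tested cases, CHS furthest, and 5 of 15 phenylpropanoid genes rose, among them PAL1, COMT1 and FAH1.

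The RNA cargo has no target in the plant. In the RNA silencing list, 3 of 15 tested genes fell, a share close to the 20.3% of all genes, and 1 rose. DCL1, the Dicer-like enzyme that makes microRNAs, fell from 87.4 to 120 CPM to 68.2 to 78.8 CPM, and DCL2 and DCL4 fell by 0.38 and 0.48. None of the 3 differed from water in the test, at differences of -0.14 to 0.01. Of the whole list, SGS3, a cofactor of small RNA amplification, was lower than in water (difference -0.26), and 3 genes were lower after the GC and length offset. RDR1, an RNA polymerase of antiviral defence, rose by 0.35, a call lost in the merged and library size fits, and AGO1 was at -0.01 (SE 0.05). Of 8 DNA damage genes, 2 were expressed above the filter, and both failed the test (SOG1 at 0.05, PARP1 at -0.29). Of 5 tested genes of dividing cells, MCM2 and TSO2 rose by 0.78 and 0.48, and TSO2 was lower than in water (difference -0.69).

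Other promoter sequences were counted in the same way. The letters TGGGCC (site II, found before many genes of growth and translation) occurred in 6.88% of the promoters that rose at least 2-fold, 5.04% of those that fell at least 2-fold and 17.5% of all tested. The G-box CACGTG occurred in 7.13%, 11.6% and 7.59%, and the GCC-box GCCGCC in 1.78%, 0.297% and 2.03%. The evening element occurred in 7.39%, 8.61% and 5%. The core of the hypoxia element, AAACCA, was found in 25.5%, 27.6% and 27.4%. These shares are descriptive, and no match says only that the letters are absent from this window.

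**Figure D5:**
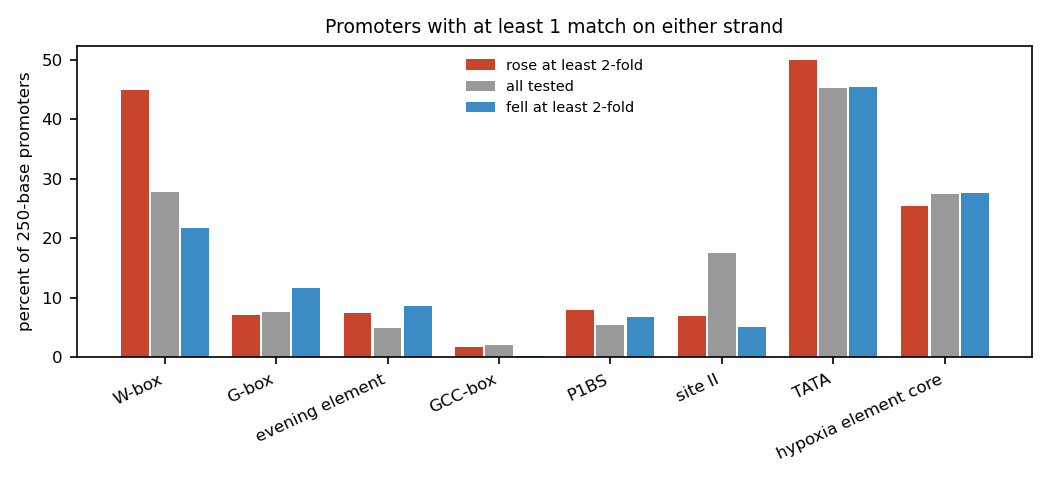
Percent of 250-base promoters with at least 1 match on either strand for 8 motifs, in genes that rose at least 2-fold, all tested genes and genes that fell at least 2-fold. The W-box share of 45% among risen genes stands above the 27.8% of all tested genes, and the site II share is lower in both called groups than among all tested genes.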

How the data were processed

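RNA-seq gene counts were deposited by the authors for 20 leaf samples, and the 5 SWNT and 5 non-infiltrated samples were compared. Per the labels and the study's methods, poly(A) libraries were trimmed, aligned with HISAT2 to TAIR10 and counted with featureCounts 2.0.1, and the submitters' processing notes name edgeR 3.30.3. The settings for strand and for reads that match several places are not given in the sources used here. A second deposited table held the authors' fold changes, p-values and FDR, which were not used. Only gene lengths were taken from it, for 139 genes, a value on another scale than counts. Each sample pooled 4 leaves, and p-values measure the spread between such pools.

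Counts of the 37336 genes were kept where their RPKM, averaged across the 20 samples, reached 1 (16288 genes) and fitted in edgeR 4.0.16 (R 4.3.3) with TMM normalization, 1 model of 4 groups and 20 samples, and the quasi-likelihood F-test. Because the filter averages all groups, list members of low level without infiltration could be tested through a treated group where they were high. P-values were adjusted over all genes tested by the Benjamini-Hochberg method. The SE of a log2 change is the change divided by the square root of F. CPM are counts scaled by the TMM-adjusted library size. The code was tested on simulated data. Library totals ran from 15248137 to 29737496 counts in both groups, and a count of 3 or fewer was taken as the floor. Promoters are the 250 bases before each gene start in TAIR10.1, whose locus tags match the count table.

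Named genes were the 12 largest rises and falls with at least 10 CPM in the higher group and groups that did not overlap, the 2 members at each end of every list, the RT-qPCR genes and the 5 largest CPM differences in each direction. Other genes were named after their values were seen. The 42 pathway lists and the comparison itself were chosen with earlier results of these data known. Alternatives were other normalizations, filters and thresholds, glmTreat, DESeq2 1.42.0, an offset for GC and length, a replicate block and leaving out each replicate.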

Additional observations from a re-analysis of the deposited data

Results flagged for a closer look

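In 88 groups of 5 samples (40 genes and 4 library measures), 7 had a lowest or highest sample whose gap to its neighbour exceeded 0.71 of the group's range. For independent, normally distributed groups, chance gives about 1 in 20. Most of these genes were picked for large changes in the same data, and some groups share reads, so that rate is only a guide. Non-infiltrated replicate 3 was low for GER3, at 2.58 CPM against a median of 46.3 CPM in the other 4, and for AT1G31690, at 1.80 CPM against 12.9 CPM. SWNTs replicate 5 was low for AT1G60590, at 0.885 CPM against 1.73 CPM. It was also high in its plastid share, at 5.91% against 4.69%, and in the share of its 10 most abundant genes, at 13.1% against 11.6%. SWNTs replicate 3 was low for the mitochondrial gene ATMG01390, at 25200 CPM against 31800 CPM, and in its mitochondrial share, at 2.62% against 3.27%. Both values rest largely on the reads of ATMG01390.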

How the results depend on the processing

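Of 253 genes followed singly, no call reversed its direction under the 27 alternatives applied to single genes. The result was weaker for 118 of the 253 with glmTreat and for 30 at an adjusted p under 0.01. The GC and length offset turned the sign of 3 list medians, senescence from 0.025 to -0.015, autophagy from 0.064 to -0.038 and mesophyll markers from 0.067 to -0.0051, and the balance of rises and falls. With glmTreat, which tests for a change beyond 2-fold, 267 genes rose and 32 fell, and 61 list genes were called. Against water, glmTreat gave 0 higher and 0 lower (112 and 24 at an unadjusted p under 0.05). DESeq2 gave 209 genes at least 2-fold higher than in water and 45 lower, beside 201 and 47 in the main fit. Without a fold minimum, DESeq2 gave 1362 and 1285 at an adjusted p under 0.05. At a 1.5-fold threshold 1442 rose, 1057 fell, and 496 and 190 differed from water. At an adjusted p under 0.01, 2131 fell, and 583 were higher and 449 lower than in water. With filterByExpr 554 genes fell at least 2-fold and with no filter 697. The joint test called 5883 rises and 5893 falls. After the GC and length offset 2863 rose and 4161 fell, and 918 were higher and 1494 lower than in water. Without 1 replicate at a time, 671 to 865 genes rose and 284 to 375 fell at least 2-fold, and 3095 to 3530 rose and 2869 to 3288 fell. Against water those fits gave 881 to 1355 higher and 746 to 1199 lower, 148 to 214 and 42 to 52 at least 2-fold. Where a cause is not given by the setting, the cause was not tested. Deviations of same-numbered samples were weakly correlated (-0.021, 0.225, 0.082, -0.086 and 0.117), which cannot settle whether the numbers pair them. With a replicate block 811 rose and 325 fell at least 2-fold. Low counts limit the genes near the filter.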

Other observations

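Whole gene families, read from the annotated product names and picked after their values were seen, gave counts that the lists do not show. Of 25 tested cysteine-rich receptor-like kinases, 21 rose, 17 at least 2-fold, and 2 fell. Of 70 genes with a Toll/interleukin-1 receptor domain, the domain of a class of intracellular immune receptors, 39 rose and 2 fell, and 20 were higher than in water. Among 13 VQ motif genes, whose proteins partner WRKY factors, 7 rose and none fell by edgeR, and among 13 berberine bridge enzymes 8 rose and 1 fell. In the other direction, 7 of 10 CLE peptide genes fell, 11 of 23 GATA factors fell and 1 rose, and 14 of 39 GDSL lipases fell and 5 rose. In comparison, 21.6% of all genes tested rose and 20.3% fell.

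Some changed genes were neighbours, a pattern noticed in the data. Runs of at least 3 consecutive tested genes that rose at least 2-fold numbered 15 and held 54 genes. Runs that fell numbered 2 and held 7. Beside the CRK cluster, 5 Toll/interleukin-1 receptor genes from AT1G72900 to AT1G72940 rose by 1.07 to 2.59 on the log2 scale, and none passed against water in the edgeR test. The lipid transfer proteins AZI1, EARLI1, AT4G12490 and AT4G12500 formed a run of 4 (chr4:7401087-7414955, TAIR10.1). MBP1 and MBP2, myrosinase-binding proteins, and AT1G52000 fell by 1.07 to 2.06. The other falling run held 4 tRNA genes of low counts whose copies share reads. Members of such runs are often recent duplicates, and reads that match several of them are uncertain.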
